A study of Homo sapiens with 9 samples.

Results

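The immediate-early genes are switched on within minutes of a growth signal without new protein synthesis, and the ERK feedback genes are the inhibitors that the same signal induces to restrain it. The set examined here held 41 genes named by symbol, and all 41 were found among the 23727 Ensembl genes of the count table. All 41 also passed the filter on low counts that left 15273 genes for testing. The RNA came from LN229, a long-established line grown from a human glioblastoma, which 1 label field spells LN299, and was read by sequencing of messenger RNA. The 9 libraries formed 3 groups of 3: untreated cells taken at 0 h, cells given 500 µM sodium formate for 8 h, and cells given 500 µM sodium formate for 24 h. The culture medium, with 10% serum, 2 mM glutamine and 17 mM glucose, was shared by all groups, so serum growth factors were part of every condition. There were no untreated cells at 8 h or 24 h, so formate and time in culture cannot be told apart.

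In this pathway, receptors such as EGFR activate RAS, and the kinases RAF, MEK and ERK then pass the signal to the nucleus. ERK phosphorylates partners of serum response factor, which turns on FOS, EGR1 and related genes, whose messengers are short-lived. Their products are mostly transcription factors, and FOS and JUN proteins pair to form AP-1. The DUSP phosphatases remove the phosphates from ERK and other MAP kinases, and the Sprouty and Spred proteins act upstream, between the receptor and RAF. Glioblastomas often carry lesions in receptor and RAS signalling, so these genes are common readouts of that activity.

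The libraries held 22222298 to 25848242 counts. Levels are given as CPM, counts scaled to library size, and 3 counts were worth 0.135 CPM in the shallowest library. The glial and glioblastoma markers VIM (3200 to 6280 CPM), NES, CD44 and SOX2 were present in every library, while GFAP did not exceed 0.425 CPM. The 7 markers of immune, endothelial, epithelial and myelinating cells each stayed at or under 1.57 CPM, and their summed level was 0.769 to 1.41 CPM at 0 h and 2.08 to 3.27 CPM at 24 h. The 7 glial markers summed to 6190 to 8540 CPM at 0 h and 5280 to 6110 CPM at 24 h. Between these times 5 of the 7 did not overlap: S100B (130 ± 46.2 and 339 ± 53.5 CPM) and OLIG2 were higher at 24 h, while VIM (4900 ± 1200 and 3550 ± 363 CPM), CD44 and SOX2 were lower. The same held for 30.3% of all tested genes. For SOX2 the gap was small, with a lowest value of 71.7 CPM at 0 h and a highest of 71.3 CPM at 24 h. The part of these shifts in the results was not tested. The share of counts from mitochondrial genes was 0.865% to 1.38% at 0 h, 0.725% to 1.43% at 8 h and 1.56% to 1.81% at 24 h, so it was higher in all the libraries of 24 h, and its part in the results was not tested. Replicate 1 stood apart from replicates 2 and 3 at 0 h, where the chi-square per degree of freedom was 57.6 and 60.5 against 8.62 between replicates 2 and 3. The same order held at 8 h (22.6 and 23.7 against 10.9) and at 24 h (13.9 and 24.5 against 8.86). GENCODE names pseudogenes after FOSL1, KLF2, KLF4, DUSP5 and BTG1, and whether reads were shared with them was not tested. Nothing in the labels says that the 3 libraries of a group came from separate cultures, so p-values measure the spread between these libraries.

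The 41 genes together held a small share of the messenger pool, and their sum was higher in every library of 24 h than in any at 0 h. Their summed level was 3648 to 3760 CPM at 0 h, 3667 to 3809 CPM at 8 h and 3795 to 3988 CPM at 24 h, so 8 h and 24 h overlapped. Abundant genes weigh most in this sum, and they moved in either direction. From 0 h to 24 h the mean went from 115 to 304 CPM for SPRY4 and from 480 to 281 CPM for FOSL1. To compare levels between genes, CPM was divided by the exon length in kilobases. On that scale FOSL1, the AP-1 subunit Fra-1, was the most abundant in untreated cells at 254 ± 48.3 CPM per kb (SD, n = 3). MCL1, a survival protein of the BCL2 family, followed at 133 ± 7.72, and IER3, an early gene product linked to survival and ERK signalling, at 122 ± 12.5 CPM per kb; the libraries of MCL1 and IER3 overlapped. PHLDA1, SPRY2, JUN and EGR1 came next, with means from 57.8 down to 44.0 CPM per kb, and of these PHLDA1 and EGR1 were clear of the gene below them.

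Several genes of the set were scarce in untreated cells. FOS was 33rd in the order at 3.02 ± 0.664 CPM per kb, DUSP1 34th at 2.87 ± 0.128, and EGR2 36th at 1.78 ± 0.805. ARC, DUSP2, FOSB and NR4A3 were the lowest, with means from 0.585 down to 0.187 CPM per kb. Of the 40 neighbouring pairs in this order, 29 had overlapping libraries and 11 did not. Between 0 h and 24 h, EGR1 moved from place 7 to 4 and SPRY4 from 12 to 6, while JUN moved from place 6 to 12 and MYC from 25 to 33.

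**Figure D1:**
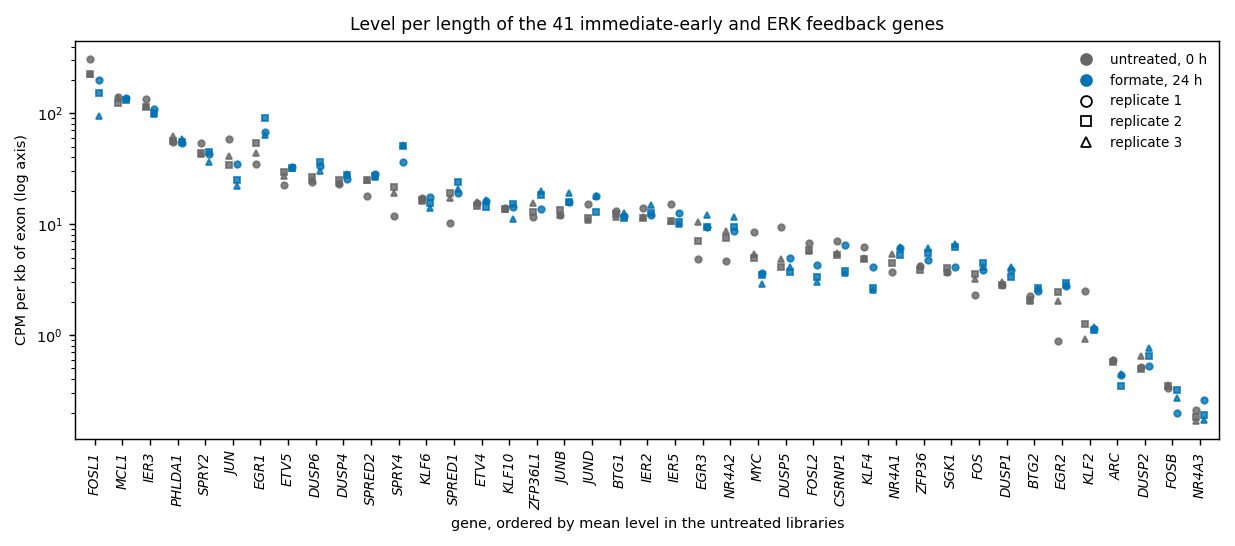
Level of each of the 41 genes as CPM per kilobase of exon on a log axis, for the 3 untreated libraries (grey) and the 3 libraries of 24 h of formate (blue), with a marker for each replicate number and genes ordered by their untreated mean. FOSL1 leads at 254 CPM per kb and NR4A3 is lowest at 0.187; the blue points of SPRY4 and EGR1 lie above the grey ones, and those of MYC and FOSL2 below them.

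After 8 h of formate no difference was detected in any of the 41 genes. By edgeR's quasi-likelihood test, 0 of 41 had an adjusted p under 0.05 (0% of all tested genes, the background), and DESeq2 called 0. By edgeR 1 had an unadjusted p under 0.05 (2.44%, against 0.517% of all tested genes). The fitted log2 fold changes of 39 of the 41 lay within 0.2 of zero, with a median of 0.00 and standard errors (SE) from 0.09 to 0.37. EGR1 stood at 138 ± 29.2 CPM at 0 h and 140 ± 16.4 CPM at 8 h, and SPRY4 at 115 ± 33.0 and 114 ± 25.7 CPM. The gene with the unadjusted p under 0.05 was ARC, an activity-regulated gene best known from neurons. It had 1.79, 1.69 and 1.77 CPM in the untreated libraries and 1.41, 0.961 and 1.15 CPM at 8 h, so its groups did not overlap, but the adjusted p was 1 (log2 fold change -0.58, SE 0.23). Replicates did not overlap between 0 h and 8 h for 2 of the 41 genes, ARC and BTG2, both lower, against 3.31% of all tested genes in either direction and 1.89% lower. The earliest treated time was 8 h, so a response that came and went before then would not appear in these libraries.

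At 24 h, 6 of the 41 genes had changed against 0 h: SPRY4, EGR1 and DUSP6 rose, and MYC, FOSL2 and KLF4 fell. This is 14.6% of the 41 genes, against 4.25% of all tested genes by the same test; in each direction it was 3 genes, against 2.47% of all tested genes called higher and 1.77% called lower. The replicate numbers of the titles were taken to pair the libraries of 0 h and 24 h. What a number stands for is not in the labels. By deviations from the group means, replicate 2 of 24 h correlated at 0.27 with untreated replicate 3 and at 0.164 with untreated replicate 2. With the number as a block over all 9 libraries, 22 of the 41 passed, 15 higher and 7 lower. Of all tested genes 24.1% passed in that fit (12.6% higher, 11.6% lower). All 6 genes were among the 22. The median log2 fold change of the 41 was 0.15 and that of all tested genes 0.01. For 22 of the 41 all libraries of 24 h lay on 1 side of all untreated ones, 15 higher and 7 lower, against 30.3% of all tested genes (15.9% higher, 14.4% lower). When replicate 2 of 24 h was left out, 0 of the 41 passed by edgeR without the block (14 had an unadjusted p under 0.05). When replicate 3 of 24 h was left out, 0 passed (12 unadjusted), and with the block 14 and 15 passed. Over all tested genes, these fits called 0 and 0 without the block, and 2519 and 2482 with it. With all 9 libraries and no block, 22 of the 41 (53.7%) and 26.4% of all tested genes had an unadjusted p under 0.05. The call of DUSP6 was lost whichever of the 9 libraries was left out, EGR1 passed in 4 of those 9 fits and KLF4 in 3, and with the block all 6 genes passed in 9 of 9. Of the 16 genes that passed only with the block, FOSL1, JUN, EGR3 and NR4A2 also passed in 9 of 9 such blocked fits, JUNB in 8, FOS, SPRED1 and SGK1 in 7, ZFP36L1 in 6, and NR4A1 and ZFP36 in 5. EGR2 and CSRNP1 passed in 4 of 9, DUSP5 in 3, JUND in 2 and ETV5 in 1, and the blocked log2 fold change spanned 0.36 to 0.99 for EGR2 and 0.22 to 0.48 for JUND. In bulk RNA, a change in the share of cells that express a gene and a change in its level per cell cannot be told apart.

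**Figure D2:**
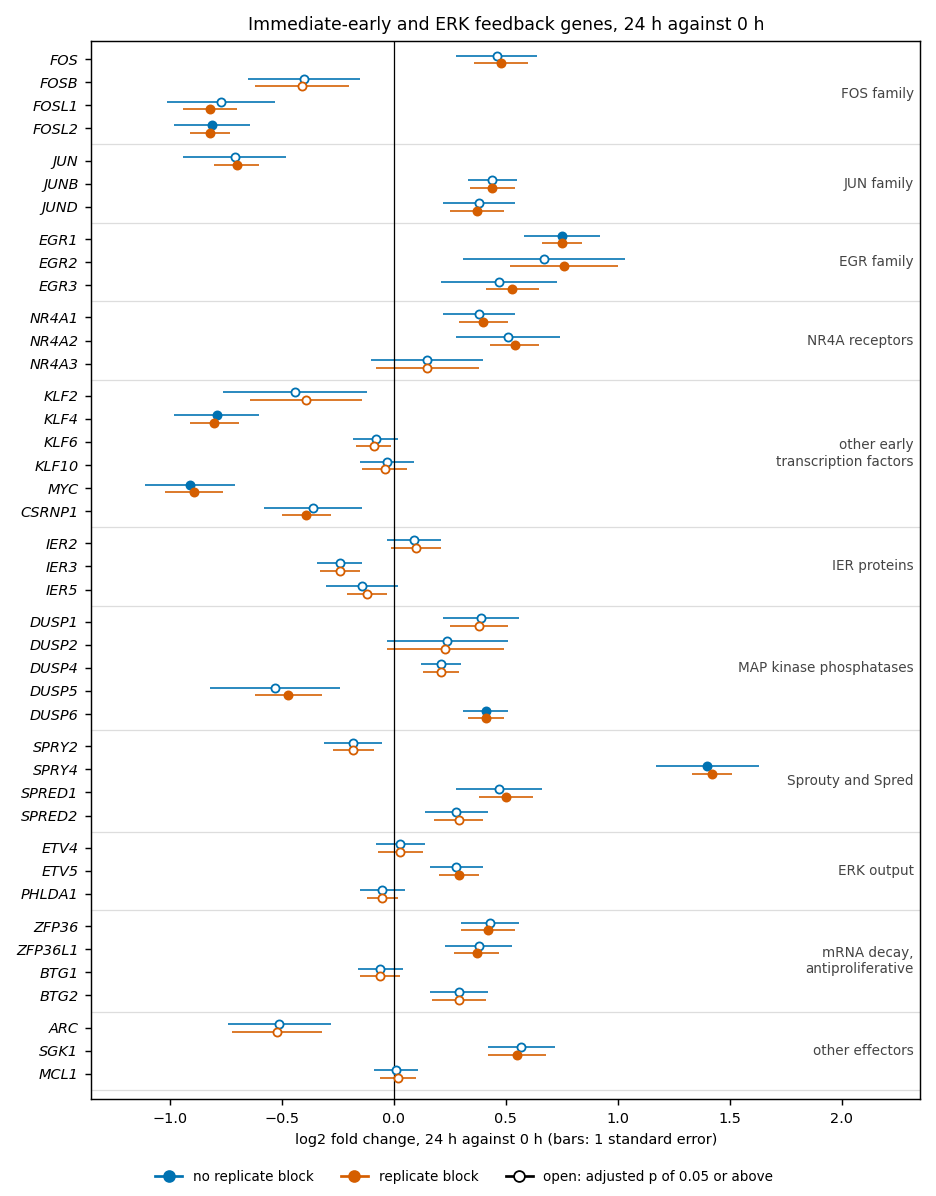
Fitted log2 fold change at 24 h of formate against 0 h for each of the 41 genes, grouped by role, with bars of 1 standard error, without (blue) and with (orange) the replicate number as a block; filled points have an adjusted p under 0.05. SPRY4 is farthest to the right at 1.40, MYC farthest to the left at -0.91, and members of the FOS and JUN families lie on both sides of zero.

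The largest change of the set was in SPRY4, which encodes Sprouty-4, an inhibitor of receptor signalling to ERK (ENSG00000187678, GRCh38 chromosome 5, 142310427 to 142326455, minus strand). Its level was 78.3, 141 and 127 CPM in the untreated libraries, 87.8, 139 and 115 CPM at 8 h and 240, 333 and 340 CPM at 24 h. Every library of 24 h lay above every other library, and replicate 1 was the lowest at each time. The rise was 2.64-fold (log2 fold change 1.40, SE 0.23, adjusted p = 0.0199 by edgeR; 2.84e-05 with the replicate block). Its relative SPRY2 had 143 ± 18.8 CPM at 0 h and 126 ± 12.7 CPM at 24 h and did not pass (adjusted p = 0.372). Per kilobase, the ratio of SPRY4 to SPRY2 was 0.220, 0.492 and 0.445 in the untreated libraries and 0.843, 1.14 and 1.41 at 24 h, a ratio picked after the values were seen.

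The Spred proteins, which bind the RAS regulator neurofibromin, moved less. SPRED1 had 84.2, 157 and 142 CPM at 0 h, 125, 143 and 142 CPM at 8 h and 157, 200 and 172 CPM at 24 h. Replicate 2 at 0 h and replicate 1 at 24 h had almost the same level, and the log2 fold change of 0.47 passed only with the replicate block (adjusted p = 0.155 without it, 0.0144 with it). SPRED2 had 117 ± 21.5 CPM at 0 h and 142 ± 3.75 CPM at 24 h and passed in neither fit (adjusted p = 0.217 and 0.0786).

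DUSP6, the cytoplasmic phosphatase that is specific for ERK, was the 1 phosphatase of 5 to pass without the block (ENSG00000139318, chromosome 12, 89347232 to 89353271, minus strand). Its level was 111, 124 and 115 CPM at 0 h, 114, 124 and 119 CPM at 8 h and 156, 169 and 141 CPM at 24 h, with no overlap between 24 h and the other times. The log2 fold change was 0.41 with a SE of 0.10 (adjusted p = 0.0396; 0.00406 with the block). Another gene covers 40.5% of its exons on the opposite strand, and the strand setting of the counts is not given in the sources used here; that gene itself was counted at 1.16 to 2.79 CPM. DUSP5, a nuclear ERK phosphatase, had the opposite sign: 24.8, 10.8 and 12.7 CPM at 0 h and 12.9, 9.70 and 10.6 CPM at 24 h. Its untreated mean rested on replicate 1, and the log2 fold change of -0.53 passed only with the block (adjusted p = 0.262 and 0.0385). DUSP1, DUSP2 and DUSP4 had log2 fold changes of 0.39, 0.24 and 0.21 and passed in neither fit. DUSP1 and DUSP2 were scarce throughout, at 5.80 ± 0.258 and 1.06 ± 0.152 CPM in the untreated cells, while DUSP4 had 172 ± 7.74 CPM.

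The EGR family of zinc finger factors, direct targets of serum response factor and its ERK-regulated partners, lay higher at 24 h in all 3 members. EGR1 (ENSG00000120738, chromosome 5, 138465490 to 138469315, plus strand) had 110, 168 and 137 CPM at 0 h, 129, 159 and 132 CPM at 8 h and 213, 282 and 202 CPM at 24 h. Its libraries of 24 h were the highest of the 9, and replicate 2 was the highest of each group. The rise was 1.68-fold (log2 fold change 0.75, SE 0.17, adjusted p = 0.0359; 0.000359 with the block). The 250 bases before its RefSeq start (GRCh38.p14, chr5:138465229-138465478, plus strand) are shown because they hold the motif through which serum response factor is known to act. Capitals mark CArG boxes, the core of the serum response element, and TGACG, the core of the cyclic AMP response element, read as CGTCA where it lies on the other strand.

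EGR1: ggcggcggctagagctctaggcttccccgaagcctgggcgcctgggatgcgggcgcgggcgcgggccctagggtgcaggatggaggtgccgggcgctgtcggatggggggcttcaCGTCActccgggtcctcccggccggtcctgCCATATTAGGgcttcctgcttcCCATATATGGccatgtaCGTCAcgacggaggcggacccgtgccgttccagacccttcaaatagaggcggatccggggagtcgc

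The CArG boxes lay 74 to 83 and 96 to 105 bases before the start, and TGACG cores 62 to 66 and 131 to 135 bases before it. Over the 29 of the 41 genes found in the RefSeq promoter table, with 39 starts, a CArG box stood in the 250 bases before 2 starts (EGR1 and 1 of 3 starts of EGR2), which is 5.13%, against 1.16% of all 35116 promoters. The search covered both strands, and no match says only that the letters are not in this window.

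EGR2, known for its part in myelination, was much scarcer, at 3.25, 8.96 and 7.52 CPM in the untreated libraries, 2.81, 7.25 and 7.61 CPM at 8 h and 10.1, 10.8 and 10.5 CPM at 24 h. The 3 libraries of 24 h lay close together, whereas replicate 1 was below a mean of 6.58 CPM at 0 h and of 5.89 CPM at 8 h. EGR3 had 23.6, 34.1 and 51.2 CPM at 0 h and 46.2, 45.9 and 59.0 CPM at 24 h, so replicate 3 at 0 h overlapped the later group. Both passed only with the block: EGR2 with adjusted p = 0.260 without it and 0.0395 with it (log2 fold change 0.67), EGR3 with 0.264 and 0.0114 (0.47).

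The NR4A genes encode orphan nuclear receptors that are induced early by many signals. NR4A1 had 32.8 ± 5.86 CPM at 0 h and 42.8 ± 3.84 CPM at 24 h, and NR4A2 had 27.5 ± 8.21 and 39.1 ± 5.90 CPM. Each was higher at 24 h in 3 of 3 same-numbered pairs and passed only in the blocked fit (log2 fold change 0.38, adjusted p = 0.168 and 0.0283 for NR4A1; 0.51, 0.187 and 0.00582 for NR4A2). For NR4A1, 10.3% of the exons are overlapped on the opposite strand. NR4A3 stood near 1 CPM at each time, at 1.18 ± 0.131 and 1.31 ± 0.299 CPM, and passed in neither fit.

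The AP-1 subunits had fold changes of both signs. Among the FOS family, FOSL2, which encodes Fra-2, fell (ENSG00000075426, chromosome 2, 28392448 to 28417312, plus strand). It had 48.7, 42.0 and 41.4 CPM at 0 h, 62.8, 44.4 and 42.7 CPM at 8 h and 30.3, 23.7 and 21.4 CPM at 24 h, with no overlap between 24 h and the other groups. The log2 fold change was -0.81 with a SE of 0.17 (adjusted p = 0.0304; 0.000225 with the block), a 1.75-fold fall. FOSL1, which an ERK signal both induces and stabilises, had 585, 428 and 426 CPM at 0 h, 624, 487 and 417 CPM at 8 h and 375, 288 and 179 CPM at 24 h. Its 3 libraries of 24 h were the lowest, yet they spread widely, and the log2 fold change of -0.77 (SE 0.24) passed only with the block (adjusted p = 0.0875 and 0.000956).

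FOS itself was scarce and lay on the other side of zero. Its level was 7.40, 11.6 and 10.3 CPM at 0 h, 8.30, 10.3 and 11.4 CPM at 8 h and 12.6, 14.6 and 13.3 CPM at 24 h, where every library exceeded all of the earlier ones. The log2 fold change of 0.46 passed only with the block (adjusted p = 0.136 and 0.0175). FOSB stayed under 2 CPM in all 9 libraries and passed in neither fit. Per kilobase, FOSL1 exceeded FOS by 136, 63.4 and 70.7 times in the untreated libraries, by 129, 81.0 and 62.8 times at 8 h and by 51.0, 33.9 and 23.2 times at 24 h. This ratio too was picked after the values were seen, and at each time FOSL1 remained the more abundant.

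In the JUN family the subunits likewise had both signs. JUN, the strongest activator of the family, had 208, 121 and 145 CPM at 0 h, 201, 126 and 148 CPM at 8 h and 123, 88.8 and 78.4 CPM at 24 h. Replicate 1 of 24 h overlapped replicate 2 of 0 h, and the log2 fold change of -0.71 passed only with the block (adjusted p = 0.0944 and 0.000672). JUNB, a weaker activator that can restrain JUN, had 22.1, 24.3 and 21.9 CPM at 0 h and 29, 29 and 34.7 CPM at 24 h, without overlap; its log2 fold change of 0.44 had an adjusted p of 0.0508, and of 0.00869 with the block. HOOK2 overlaps 14.2% of the exons of JUNB on the opposite strand and had 5.65 to 6.15 CPM at 0 h and 6.38 to 9.44 CPM at 24 h. JUND had 28.1, 21.3 and 20.5 CPM at 0 h and 33.2, 24.2 and 33.5 CPM at 24 h, and its log2 fold change of 0.38 passed only with the block (adjusted p = 0.158 and 0.0480). The ratio of JUN to JUNB per kilobase, also picked afterwards, was 4.85, 2.56 and 3.40 at 0 h and 2.17, 1.58 and 1.16 at 24 h.

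The windows before JUNB and JUND are shown as further cases of genes that lay higher at 24 h. As with EGR1, the 250 bases lie wholly outside the gene as GENCODE annotates it. SGK1 and NR4A1 also lay higher, passed with the block and have a window wholly outside the gene. Those windows held none of the motifs and are not shown, and a link between motif and change was not tested. Capitals mark TGACG and the full cyclic AMP response element TGACGTCA on either strand (GRCh38.p14; JUNB chr19:12791236-12791485, plus strand; JUND chr19:18281623-18281872, minus strand).

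JUNB: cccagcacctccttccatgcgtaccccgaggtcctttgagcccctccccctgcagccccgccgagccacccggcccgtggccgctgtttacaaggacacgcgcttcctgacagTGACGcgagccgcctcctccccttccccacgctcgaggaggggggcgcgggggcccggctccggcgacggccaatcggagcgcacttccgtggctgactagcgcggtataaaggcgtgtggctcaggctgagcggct
JUND: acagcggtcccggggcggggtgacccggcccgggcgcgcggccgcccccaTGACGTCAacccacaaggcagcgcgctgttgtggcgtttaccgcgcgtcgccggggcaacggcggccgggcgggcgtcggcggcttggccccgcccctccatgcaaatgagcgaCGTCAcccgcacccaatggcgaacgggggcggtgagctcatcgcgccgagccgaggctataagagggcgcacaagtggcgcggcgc

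JUNB held a TGACG 133 to 137 bases before its start. JUND held TGACGTCA 193 to 200 bases and a separate TGACG 82 to 86 bases before its start. The full TGACGTCA stood before 3 of the 39 starts (7.69%, in JUND, DUSP1 and ZFP36L1), against 1.65% of all promoters. The shorter TGACG, which is contained in it, stood before 19 starts (48.7%), against 21.2% of all promoters, in genes that lay higher (FOS, EGR1, SPRY4) and lower (FOSL2, KLF4, JUN) alike. These windows also differ in base composition, with a median of 68.4% G and C against 58.0% over all promoters. Neither the AP-1 motif TGANTCA nor the EGR motif GCGTGGGCG was found before any of the 39 starts, and these stood in 6.57% and 0.720% of all promoters.

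**Figure D3:**
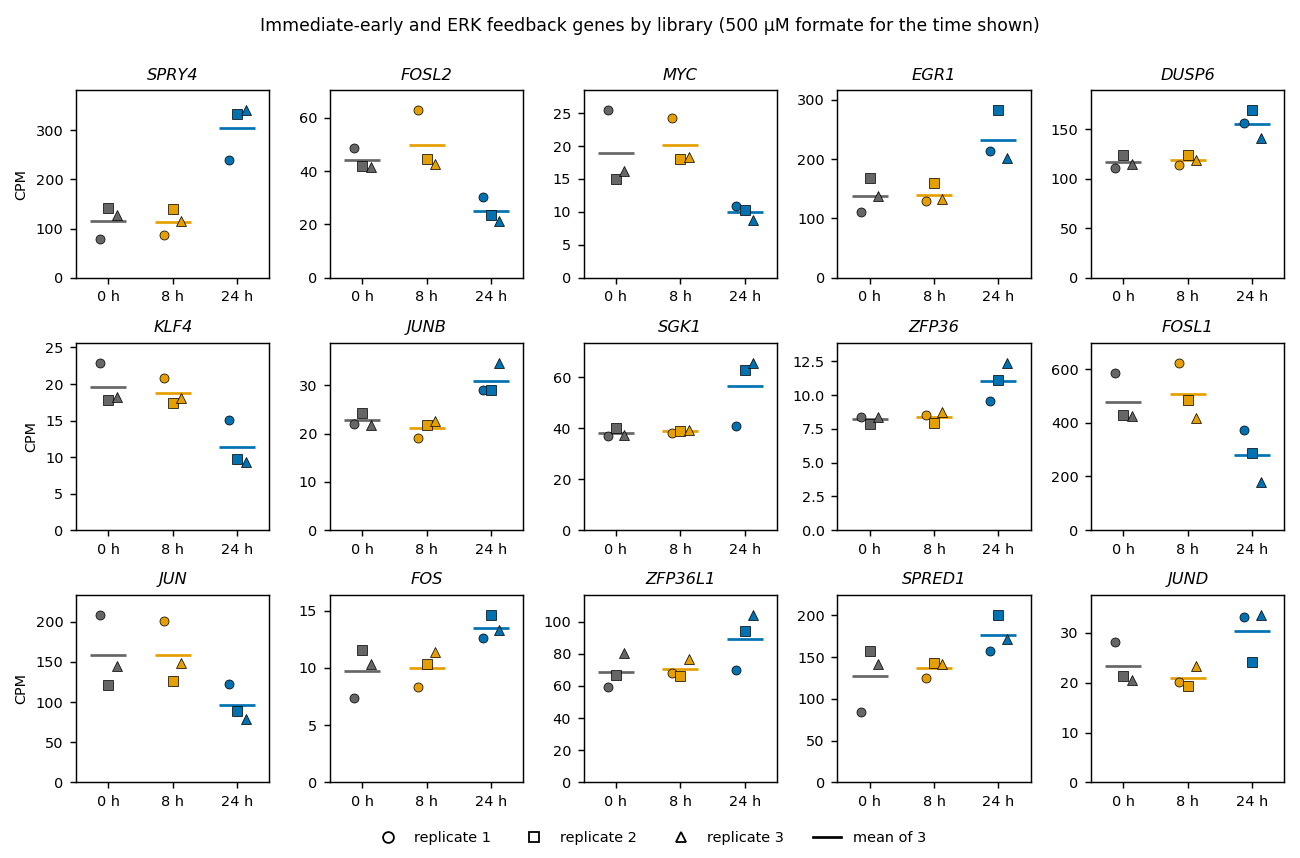
CPM in each library for the 15 genes of smallest p in the 24 h comparison among those that passed in either fit, by time of 500 µM formate; markers give the replicate number, lines the mean of 3 libraries, and each axis starts at 0. SPRY4 reaches 240 to 340 CPM at 24 h from at most 141 before; the libraries of MYC and FOSL2 at 24 h are the lowest of their 9.

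MYC, the growth-promoting factor that ERK stabilises as a protein, fell the most of the set (ENSG00000136997, chromosome 8, 127735434 to 127741434, plus strand). It had 25.4, 15 and 16.2 CPM at 0 h, 24.2, 18 and 18.4 CPM at 8 h and 10.9, 10.3 and 8.70 CPM at 24 h, the 3 lowest values of the 9. The log2 fold change was -0.91 with a SE of 0.20 (adjusted p = 0.0347; 0.000796 with the block), a 1.88-fold fall. KLF4, a factor of differentiation and pluripotency (ENSG00000136826, chromosome 9, 107484852 to 107490482, minus strand), had 22.9, 17.8 and 18.2 CPM at 0 h, 20.8, 17.4 and 18.1 CPM at 8 h and 15.1, 9.70 and 9.32 CPM at 24 h. The libraries of 24 h lay below all of the earlier ones, replicate 1 was the highest at each time, and the log2 fold change was -0.79 with a SE of 0.19 (adjusted p = 0.0396; 0.000731 with the block).

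The other early transcription factors were lower or level at 24 h. CSRNP1, a nuclear factor induced by several stress and growth signals, had 19.1 ± 2.93 CPM at 0 h and 14.8 ± 5.08 CPM at 24 h; replicate 1 of 24 h, at 20.7 CPM, overlapped the untreated libraries, and it passed only in the blocked fit (log2 fold change -0.36, adjusted p = 0.303 and 0.0255). KLF6 had 102 ± 2.73 and 96.4 ± 10.8 CPM and KLF10, a gene also induced by TGF-beta, 55.3 ± 0.391 and 54.2 ± 8.36 CPM. KLF2 was scarce, at 3.16 ± 1.70 CPM at 0 h and 2.31 ± 0.0836 CPM at 24 h. None of these 3 passed in either fit.

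Of the 3 genes of IER proteins, regulatory products of early genes, edgeR called 0 in either fit and DESeq2 0, with 1 unadjusted p under 0.05 without the block (IER3), and 3 genes are too few to read this against the 4.25% of all tested genes. IER2 had 37.7 ± 4.61 CPM at 0 h and 40.2 ± 4.54 CPM at 24 h, IER5 50.8 ± 11.0 and 46.2 ± 6.03 CPM, and IER3 166 ± 16.9 and 140 ± 7.94 CPM. The libraries of IER3 did not overlap between these times (log2 fold change -0.24, SE 0.10, adjusted p = 0.159). Genes on the opposite strand cover 30.8% of the exons of IER2 and 26.5% of those of IER3.

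Of the genes taken as outputs of ERK, ETV5, a factor of the PEA3 group, had 153 ± 19.4 CPM at 0 h and 187 ± 2.84 CPM at 24 h, and passed only in the blocked fit (log2 fold change 0.28, adjusted p = 0.173 and 0.0428). ETV4, of the same group, had 55.1 ± 2.11 and 56.4 ± 4.57 CPM, a log2 fold change of 0.03 with a SE of 0.11. PHLDA1 had 467 ± 30.8 and 451 ± 18.7 CPM (log2 fold change -0.05, SE 0.10). Neither of these passed.

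Among the factors that shorten messenger life, ZFP36, whose product binds AU-rich elements in early gene transcripts, had 8.39, 7.85 and 8.36 CPM at 0 h, 8.53, 7.95 and 8.76 CPM at 8 h and 9.59, 11.1 and 12.4 CPM at 24 h. Every library of 24 h was above all of the others, and the log2 fold change of 0.43 passed only with the block (adjusted p = 0.0849 and 0.0249). Its relative ZFP36L1 had 59.4, 66.7 and 80.2 CPM at 0 h and 70.1, 94.2 and 104 CPM at 24 h, with overlap, and passed only in the blocked fit (log2 fold change 0.38, adjusted p = 0.149 and 0.0162). The antiproliferative BTG1 and BTG2 passed in neither fit. BTG2 was higher at 24 h in every library, at 7.10 ± 0.157 CPM against 5.83 ± 0.344 CPM at 0 h (adjusted p = 0.195 and 0.113).

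SGK1, a kinase induced by serum and glucocorticoids, had 36.9, 40.1 and 37.2 CPM at 0 h, 38.2, 38.9 and 39.4 CPM at 8 h and 41, 62.8 and 65.7 CPM at 24 h. Replicate 1 of 24 h was barely above the earlier libraries, and the log2 fold change of 0.57 passed only with the block (adjusted p = 0.0560 and 0.00970). MCL1 stood at 582 ± 33.7 CPM at 0 h and 588 ± 8.42 CPM at 24 h (log2 fold change 0.01, SE 0.10). ARC had 1.75 ± 0.0511 CPM at 0 h and 1.22 ± 0.164 CPM at 24 h and passed in neither fit (log2 fold change -0.51, adjusted p = 0.177 and 0.0843).

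Setting 24 h against 8 h shows which genes differed between the treated times, and it uses the same libraries of 24 h as the comparison above. It called 6 of the 41 genes, 14.6%, against 4.56% of all tested genes, 4 higher and 2 lower (2.84% and 1.72% of all tested genes). SPRY4, EGR1, DUSP6, FOSL2 and MYC, already named, were among them. Their log2 fold changes at 24 h against 8 h were 1.42 for SPRY4 (adjusted p = 0.0183), 0.73 for EGR1 (0.0382) and 0.38 for DUSP6 (0.0485). FOSL2 had a log2 fold change of -0.99 (adjusted p = 0.0196) and MYC of -1.02 (0.0250). JUNB passed here, with 21.2 ± 1.79 CPM at 8 h and 30.9 ± 3.32 CPM at 24 h (adjusted p = 0.0288, log2 fold change 0.54, SE 0.11). KLF4 had an adjusted p of 0.0506 and did not pass. Leaving out replicate 1 of 8 h, replicate 2 of 24 h or replicate 3 of 24 h left 0 of the 41 called by edgeR, and 14, 14 and 13 with an unadjusted p under 0.05. Leaving out replicate 3 of 8 h left 1, replicate 2 of 8 h left 3, and untreated replicate 1 gave 13. Over all tested genes these fits called 53, 372 and 2545. Each fit that left 0 of the 41 called 0 of all tested genes. With all 9 libraries and no block, 18 of the 41 (43.9%) and 22.8% of all tested genes had an unadjusted p under 0.05.

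**Figure D4:**
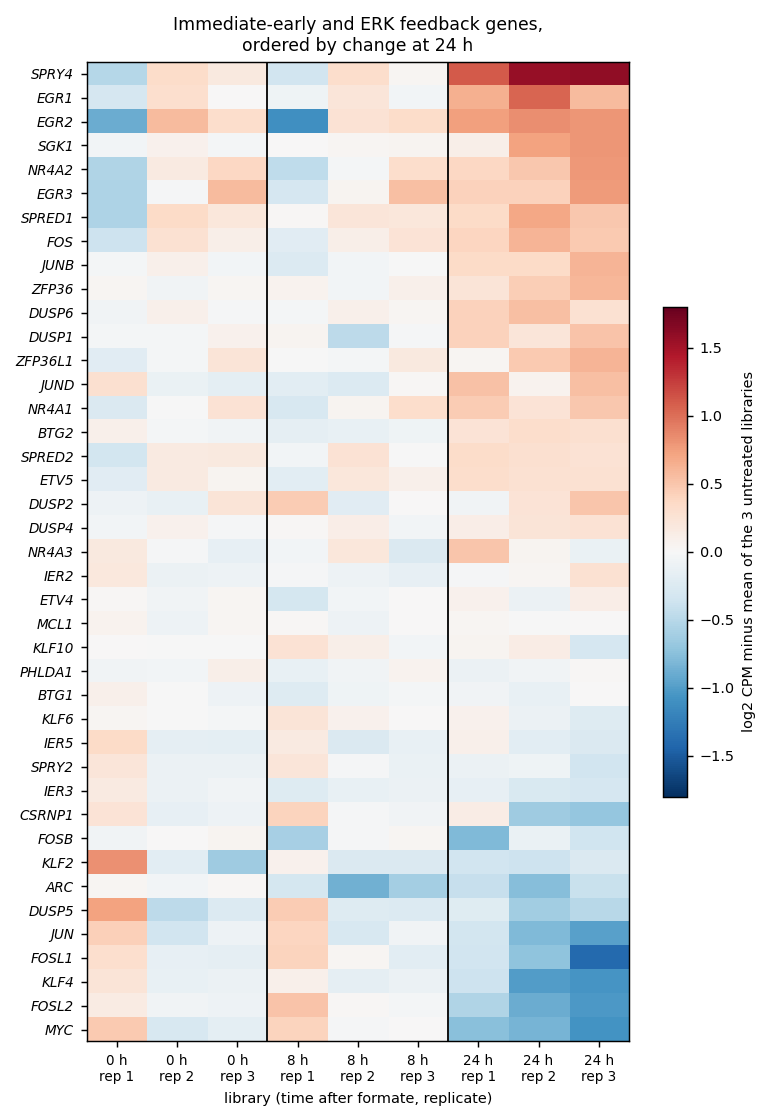
Each cell is the log2 CPM of a gene (rows, ordered by change at 24 h against 0 h) in a library (columns, 3 replicates at each time), minus the gene's mean over the 3 untreated libraries; red is higher and blue lower. The 3 columns of 24 h are red in the top row, SPRY4, and blue in the bottom row, MYC.

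Of the 22 genes that passed with the block, untreated replicate 1 was the untreated library farthest from the mean of 24 h in 19 (86.4%); over all 3687 genes called with the block this share was 86.9%, and over all tested genes 68.6%. At 8 h, replicate 1 was the farthest in 19 of the 22 (86.4%), against 81.0% of all genes called. Among the 6 genes called without the block, replicate 1 was the farthest in 6 of 6 at 0 h and in 6 of 6 at 8 h. Over all genes called without the block these shares were 83.8% and 76.6%. EGR2 at 3.25 CPM and SPRED1 at 84.2 CPM were examples of genes low in untreated replicate 1, and JUN at 208 CPM and DUSP5 at 24.8 CPM of genes high in it. Without untreated replicate 1, the 24 h comparison called 3 of the 41 genes, 1 higher and 2 lower, and 18 with the block. Over all tested genes these 2 fits called 356 and 3815. SPRY4 kept a log2 fold change between 1.17 and 1.57 whichever of the 9 libraries was left out, and MYC one between -1.06 and -0.66.

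The genes that carry the signal to these targets were read from lists of other pathway members. Of 13 tested growth factor ligands, 1 rose and 1 fell at 24 h against 0 h (15.4%, against 4.25% of all tested genes), and with the block 2 rose and 2 fell (30.8%, against 24.1%). PDGFA, a ligand of the PDGF receptors, had 112 ± 6.94 CPM at 0 h and 174 ± 20.4 CPM at 24 h (adjusted p = 0.0199, log2 fold change 0.63, SE 0.11). NRG1, a ligand of ERBB3, had 47.5, 30.5 and 32.7 CPM at 0 h and 20.1, 12.2 and 7.54 CPM at 24 h (log2 fold change -1.47, SE 0.35, adjusted p = 0.0393). TGFA, a ligand of EGFR, had 317 ± 74.5 and 497 ± 98.2 CPM and passed only in the blocked fit (log2 fold change 0.65, adjusted p = 0.0929 and 0.0260).

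Of 16 receptors and adaptors, 0 passed without the block in edgeR, 9 had an unadjusted p under 0.05 (56.2%, against 26.4% of all tested genes) and DESeq2 called 5, all higher. With the block 6 passed higher and 3 lower (56.2%, against 24.1%). Libraries of 0 h and 24 h did not overlap for 7 genes that were higher and 3 that were lower (62.5%, against 30.3% of all tested genes). The 3 lower were AXL (907 ± 123 and 673 ± 132 CPM), MET (189 ± 4.66 and 144 ± 16.2 CPM) and ERBB2 (215 ± 30.6 and 175 ± 11.3 CPM). The 3 genes described next, picked by smallest p, all lay higher. GAB1, a docking protein of receptor signalling, had 9.91 ± 2.15 CPM at 0 h and 16.6 ± 3.70 CPM at 24 h (log2 fold change 0.74, adjusted p = 0.0613 and 0.00174). FGFR3 had 10.6 ± 3.94 and 20.5 ± 3.72 CPM (0.94, 0.0756 and 0.000608), and several pseudogenes are named after it. PDGFRA had 5.04, 12.7 and 11.5 CPM at 0 h and 17.9, 21.4 and 24.1 CPM at 24 h (1.11, 0.0759 and 0.000956); another gene on its strand overlaps 15.8% of its exons.

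Of 16 genes of the cascade from RAS to ERK and its RSK kinases, 0 passed without the block in edgeR, 4 had an unadjusted p under 0.05 (25%, against 26.4% of all tested genes) and DESeq2 called 1. With the block 1 passed higher and 2 lower (18.8%, against 24.1%), so these shares were close to those of all tested genes. RPS6KA2, an RSK kinase, had 8.53 ± 1 CPM at 0 h and 12.3 ± 1.81 CPM at 24 h (log2 fold change 0.52, adjusted p = 0.0883 and 0.00665). HRAS had 71.4, 37.7 and 34.9 CPM at 0 h and 36.8, 25.8 and 28.5 CPM at 24 h, so its untreated mean rested on replicate 1 (-0.66, 0.136 and 0.00528). MAP2K2, which encodes MEK2, showed the same, with 160, 106 and 103 CPM at 0 h and 105, 89.7 and 91.8 CPM at 24 h (-0.37, 0.161 and 0.0333).

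Of serum response factor and its 5 partners, 0 of 6 passed without the block, 0 had an unadjusted p under 0.05 and DESeq2 called 0; with the block MRTFA passed, 16.7% of the list against 24.1% of all tested genes (59.7 ± 6.32 and 50 ± 2.46 CPM, log2 fold change -0.25, adjusted p = 0.201 and 0.0457). Of 18 other negative regulators, LRIG1, an inhibitor of ERBB receptors, passed (5.56% of the list, against 4.25%). It had 10.9, 13.9 and 11.6 CPM at 0 h and 19.6, 18.8 and 20 CPM at 24 h (log2 fold change 0.68, SE 0.13, adjusted p = 0.0267), and 12.9% of its exons are overlapped on the opposite strand. With the block, 2 passed higher and 2 lower (22.2%, close to the 24.1% of all tested genes), the latter being the phosphatases DUSP7 (50.1 ± 10.7 and 32.3 ± 1.87 CPM, log2 fold change -0.63, adjusted p = 0.0638 and 0.00329) and DUSP10 (15.5 ± 4.91 and 9.44 ± 3.58 CPM, -0.71, 0.142 and 0.00177).

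Of 32 other early and delayed-early genes, 2 rose and 1 fell (9.38%, against 4.25% of all tested genes). With the block 5 rose and 12 fell (53.1%, against 24.1% of all tested genes, 12.6% higher and 11.6% lower). TRIB1, a pseudokinase that binds MEK, rose by 0.54 on the log2 scale, with 58.1 ± 6.90 CPM at 0 h and 84.7 ± 6.20 CPM at 24 h (adjusted p = 0.0396). BHLHE40, a repressor linked to the circadian clock, rose by 0.52, with 71.6 ± 9.98 and 103 ± 3.48 CPM (adjusted p = 0.0425). CCND1, the cyclin D1 gene through which ERK signals drive entry into the cell cycle, fell from 942 ± 137 to 562 ± 129 CPM (-0.74, 0.0442), and 10.3% of its exons are overlapped on the opposite strand. The largest change of the list was in CCN1 (log2 fold change -1.42), which did not pass without the block. Its level was 164, 72.2 and 78.1 CPM at 0 h and 55.4, 41.5 and 20.3 CPM at 24 h. The median log2 fold change of this list was -0.16, against 0.15 for the 41 genes and 0.01 for all tested genes.

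**Figure D5:**
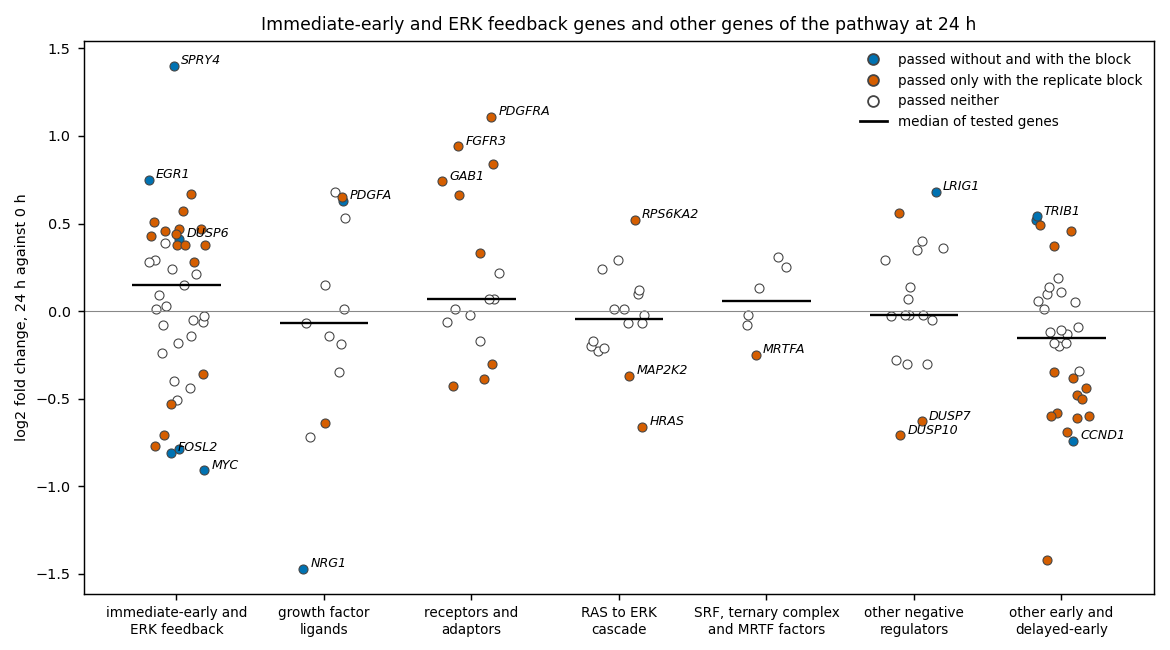
Fitted log2 fold change at 24 h against 0 h of the 41 genes and of 6 lists of other pathway genes; each point is a gene, coloured by whether its adjusted p was under 0.05 without and with the replicate block, and lines are the medians of the tested genes. Among the ligands NRG1 is lowest at -1.47 and PDGFA lies at 0.63, and the medians run from -0.16 for other early genes to 0.15 for the 41 genes.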

How the data were processed

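The authors deposited 1 table of raw counts per Ensembl gene for 9 libraries. STAR 2.7.4a, bcl2fastq 2.20.0.422 and GRCh38 are listed, per the submitters' processing notes; the counting program, annotation release and strand setting are not given in the sources used here. A stranded mRNA kit and RNA with an integrity number above 9 were used, per the labels' protocols.

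Gene symbols were looked up by Ensembl identifier, which named 19733 of the 23727 genes, coordinates and exon lengths from GENCODE release 29 on GRCh38, and promoter windows from RefSeq (GRCh38.p14). Genes were filtered with filterByExpr and scaled with TMM. Counts were fitted over all 9 libraries with edgeR 4.0.16 in R 4.3.3 (glmQLFit, glmQLFTest, two-sided, Benjamini-Hochberg over 15273 genes, threshold 0.05). CPM uses the TMM factors, and standard errors are those implied by the test statistic. Correlations across genes of deviations from the group means were 0.367, 0.164 and 0.251 for same-numbered libraries of 0 h and 24 h, 0.476, 0.432 and 0.414 for 0 h and 8 h, and 0.423, 0.0367 and 0.404 for 8 h and 24 h. The replicate numbers in the titles, with these values, were taken to pair 0 h with 24 h and with 8 h. They were not taken to pair 8 h with 24 h, where the value for replicate 2 was 0.0367. A number that pairs 0 h with each later time would also pair 8 h with 24 h, so the pairing remains an assumption. The block over all 9 libraries used the number at every time. On simulated counts, 97.5% of 200 genes changed 2-fold at 24 h were recovered among 15273. Of the genes of the set called at 24 h against 0 h, only SPRY4 changed by more than 2-fold. Recovery of smaller changes was not simulated. In the real libraries PDGFRA (log2 fold change 1.11) and CCN1 (-1.42) did not pass without the block at 24 h against 0 h. The simulated share therefore does not carry over to these data, and a gene that did not pass may still have changed.

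The 41 genes and the other lists were chosen with earlier results of these data known. Genes that passed with or without the block were named with values in every library, up to the 15 of smallest p in the contrast of 24 h with 0 h, with at most 3 from each other list. EGR2, EGR3, DUSP5 and ARC, and from the other lists AXL, MET, ERBB2 and CCN1, were added after their values were seen. Alternatives were DESeq2 1.42.0, other scalings, no filter, fewer libraries and the replicate block.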

Additional observations from a re-analysis of the deposited data

Results flagged for a closer look

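For 6 of the 41 genes, the effect at 24 h differed from the effect at 8 h against the same untreated libraries, by edgeR's test of 24 h against 8 h. The difference between the effects, on the log2 scale, was 1.42 for SPRY4, 0.73 for EGR1, 0.54 for JUNB and 0.38 for DUSP6, and it was -0.99 for FOSL2 and -1.02 for MYC. The untreated mean cancels in this difference, so these are the values of 24 h against 8 h given above and not a separate result. All libraries of 24 h lay on the same side of those of 8 h for each of the 6, which the test on these same libraries had picked. Such a separation held for 22 of the 41 genes and for 34.3% of all tested genes.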

How the results depend on the processing

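At 24 h against 0 h, 649 genes and 6 of the 41 passed. With the replicate block these were 3687 and 22, with DESeq2 1656 and 11, with only the 6 libraries of 0 h and 24 h 124 and 2, and with those libraries and the block (an alternative chosen after seeing the data) 1900 and 13. Leaving out 1 library gave 0 to 899 genes and 0 to 7 of the 41, and with the block 2213 to 3815 and 14 to 20. Without the block, the counts of 0 came from leaving out replicate 2 or replicate 3 of 24 h; untreated replicates 1 and 3 and replicate 3 of 8 h also moved the count of the 41 genes, to 3, 3 and 2.

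At 24 h against 8 h, 696 genes and 6 of the 41 passed. With the replicate block these were 3130 and 21, with DESeq2 1486 and 11, with only the 2 groups 1787 and 11, and with the 2 groups and the block 4810 and 27. Leaving out 1 library gave 0 to 2545 genes and 0 to 13 of the 41, and with the block 1179 to 5432 and 10 to 27. Same-numbered libraries of 8 h and 24 h correlated at 0.0367 for replicate 2, against 0.423 and 0.404 for replicates 1 and 3. Not every library correlated best with its own number, so the counts with the block rest on an assumed pairing. The cause of these shifts was not tested.

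At 8 h against 0 h, 0 genes passed in every alternative run. Other scalings, which moved the median of all genes by less than 0.1, and no filter kept every total within 1.5 times; without the filter, the members called at 24 h against 8 h were 3 higher and 4 lower, in place of 4 and 2. With the replicate block, SPRY4, EGR1, DUSP6, MYC, FOSL2 and KLF4 passed at 24 h against 0 h whichever library was left out. The 22 genes that passed with the block kept the sign of their log2 fold change at 24 h against 0 h in every alternative run, though most of those called only with the block lost the call when some library was left out. FOSB, ARC, DUSP2 and NR4A3, under 2 CPM in all or most libraries, had the least depth.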
